A study of Homo sapiens with 9 samples.

Results

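The genes described here make, supply and shape mitochondria. They encode proteins of the mitochondrial ribosome, subunits of the import machinery, translation factors, proteins of the intermembrane space and cristae, and factors of mitochondrial fusion and fission. They were chosen by symbol from the genes listed for doxorubicin against control, and 71 of the 6499 listed genes matched. The symbols fall into 7 roles, with 32 genes of the large and 16 of the small ribosomal subunit, 8 import genes, 3 translation factors, 7 CHCHD and MICOS genes, 4 dynamics genes and POLRMT. All 71 are protein-coding. A further 60 coding genes of RefSeq fit the same symbols and are not in the list, among them MFN2, DNM1L, TFAM, TWNK, LONP1, CLPP and TOMM20, and these were not analysed here.

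WI-38 is an established line of diploid human lung fibroblasts, used here at population doubling 30. Control cells received DMSO only, and the doxorubicin model group received 1 μM doxorubicin for 12 h. Both groups were then kept for 48 h in medium with DMSO. Values were analysed for 3 libraries of each group, and 3 further libraries, given oridonin after doxorubicin, were not analysed here. The study's methods speak in general of independent experiments, but the labels do not say whether the libraries of a group came from separate cultures. P-values measure the spread between these libraries, which may be technical. The list holds only genes that passed the study's own thresholds (fold change over 1.2 and p under 0.05) on these 6 libraries, so no test below is independent of that choice. Genes with near-identical copies are uncertain, since 160 pseudogenes of RefSeq carry symbols that fit the same rule.

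Mitochondria keep a small genome of their own and a ribosome that translates only the few proteins it encodes, while every protein of that ribosome is encoded in the nucleus, made in the cytosol and imported. The TOM complex forms the entry pore in the outer membrane, and TIM complexes carry proteins across or into the inner membrane, with small TIM chaperones between them. Mitofusins and OPA1 fuse the outer and inner membranes. Nuclear respiratory factor 1 (gene NRF1) and the ETS family factor GABP (genes GABPA and GABPB1) are known activators of many nuclear genes for mitochondrial proteins, and YY1 is another factor found at their promoters.

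Members shared short promoter words that the choice by symbol did not use. RefSeq promoter windows (build GRCh38.p14, from 250 bases before to 50 after a start) were found for 66 of the 71 genes. The ETS word CCGGAAG or its reverse CTTCCGG stood in the windows of 32 of the 66 (48.5%), against 16.5% of 15843 coding genes and 968 of the 4850 listed genes with a window. The YY1 word AAGATGGC or GCCATCTT stood in 16 of 66 (24.2%), against 4.66% of coding and 5.88% of listed genes. The NRF1 word CGCATGCG, which reads the same on both strands, stood in 6 of 66 (9.09%), against 3.28% of coding and 3.98% of listed genes. Both strands were searched, 45 members held at least 1 of the 3 words, and 7 held both the ETS and the YY1 word, which can overlap by the letters AAG. A match is a description of letters and not a bound site. The stretches below hold no exon of GENCODE release 29, are written from 5′ to 3′ on the strand of the gene named, and carry the matched word in capitals. They are shown because they stand upstream of genes that rose (MRPL17, MRPS34), of one that was not called (MRPL52) and of 2 that fell (MFN1, OPA1). Those of MRPS34, OPA1 and MRPL52 also stand upstream of a coding gene on the other strand. These neighbours are EME2, ATP13A4 and SLC7A7, which start 52, 33 and 59 bp away and are not in the list.
MRPL17, chr11:6683402-6683450, minus strand, NRF1 word: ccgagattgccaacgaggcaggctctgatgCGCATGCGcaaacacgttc
MRPS34, chr16:1773156-1773206, minus strand, ETS word at 2 places: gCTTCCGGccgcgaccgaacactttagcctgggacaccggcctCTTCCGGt
MRPL52, chr14:22829821-22829878, plus strand, YY1 word: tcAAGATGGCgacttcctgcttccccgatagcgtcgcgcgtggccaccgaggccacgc
MFN1, chr3:179347616-179347682, plus strand, ETS word: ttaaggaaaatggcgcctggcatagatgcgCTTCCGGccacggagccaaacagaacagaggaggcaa
OPA1, chr3:193593112-193593143, plus strand, NRF1 word: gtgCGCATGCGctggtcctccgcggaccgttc
The NRF1 word was thus found upstream of MRPL17, one of the larger rises among the ribosomal genes, and upstream of OPA1, which fell. Among the 34 members with a window that were called higher, 47.1% held the ETS word, 20.6% the YY1 word and 5.88% the NRF1 word. Of the 4 called lower with a window, 1 held the ETS word, 1 the NRF1 word and none the YY1 word.

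Levels are given in TPM, a share of each library's transcripts that is corrected for their length. The deposited table does not name its unit and was taken to hold TPM. The 5721 listed genes that average 1 TPM or more were fitted with limma on log2(TPM + 1), and a gene was called at a Benjamini-Hochberg adjusted p under 0.05. All 71 members passed the filter on low values. Fold changes on this scale are understated for genes of a few TPM. Listed genes made up 54.3 to 54.8% of all TPM in a control library and at least 58.6% in a doxorubicin library. The depth of the libraries is unknown. Of 11 fibroblast markers, 5 were listed (COL1A1, COL1A2, COL3A1, PDGFRB, FN1), with a summed level of 10300 to 10600 TPM in control and 9410 to 11500 TPM in doxorubicin libraries. The sum hides opposite differences, since FN1 had a log2 fold change of 0.45 and the other 4 from -1.48 for COL3A1 to -0.38 for COL1A2. Of 12 markers of other cell types, 5 were listed, and their sum was 81.5 to 83.2 TPM in control and 139 to 145 TPM in doxorubicin libraries. On average CD68, a lysosomal protein, had 47.2 TPM in control and 91.3 TPM in doxorubicin libraries. KRT18 had 26.1 and 40.2 TPM and KRT8 8.68 and 10.0 TPM. PTPRC and MYH11 stayed at or under 0.62 TPM in every library. The markers differed in kind, being of epithelial, leukocyte and smooth muscle cells. The part of all these markers in the results was not tested, and in bulk RNA fewer cells of a type and less RNA per cell cannot be told apart.

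Most ribosomal, import and cristae genes had slightly higher levels after doxorubicin, and the dynamics genes fell. After doxorubicin 38 of the 71 were called higher and 5 lower, and 28 were not called. These 28 had still passed the study's thresholds on the authors' own scale, so not called here does not mean unchanged. Over all genes tested, 28.2% were called higher and 48.7% lower, 76.9% in all, and among genes of at least 5 TPM, a level that 70 members reach, 32.0% and 44.8%. The members' median log2 fold change was 0.19, and that of all genes tested was -0.28, so the members' median lay 0.47 above it. The list holds only genes past the study's thresholds, so the median of all genes tested is not a baseline of no change. The distance of 0.47 also depends on the filter on low values. It was 0.34 with no filter and 0.15 among genes of at least 5 TPM, whose median was 0.05. Log2 fold changes ran from -0.96 for MTFR2 to 0.88 for CHCHD10. In 44 members all doxorubicin libraries lay above all control libraries, and in 5 all lay below, against 32.3% and 48.4% of all genes tested. With 3 libraries a group, a two-sided exact permutation test of a single gene gives p = 0.1 at best.

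**Figure D1:**
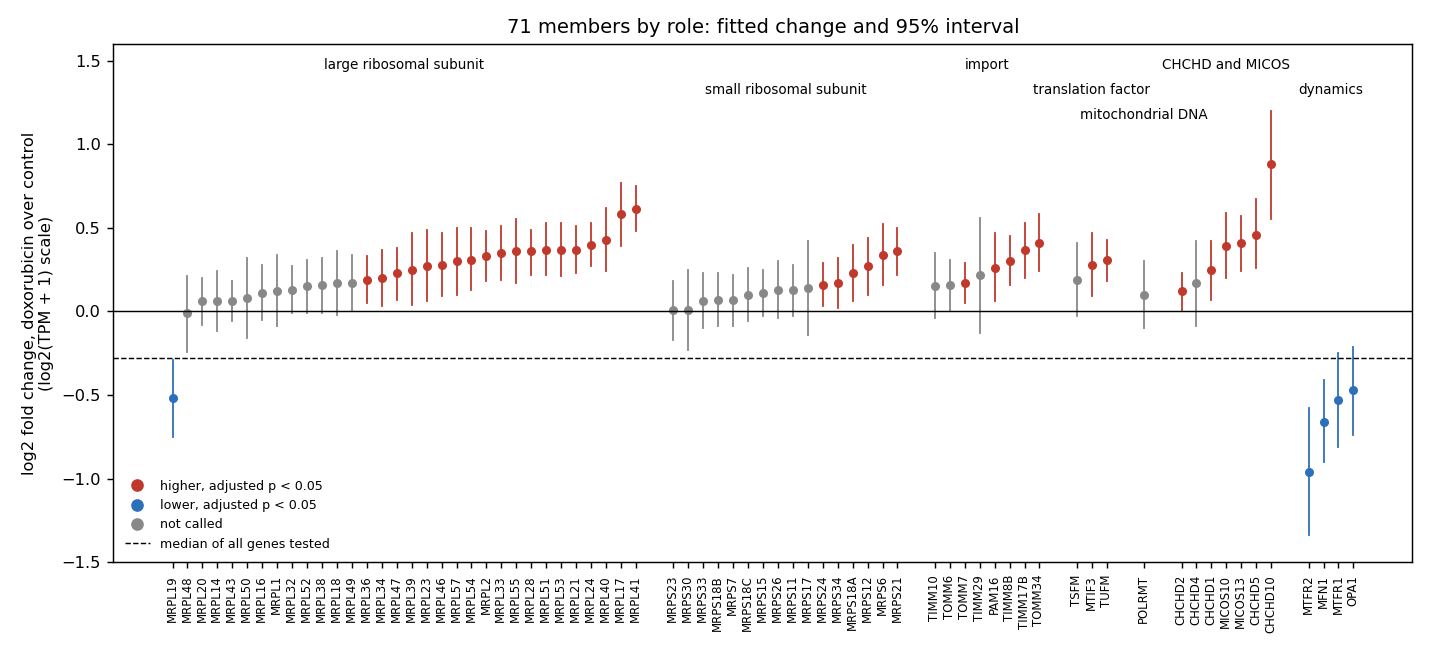
Log2 fold change of doxorubicin over control on the log2(TPM + 1) scale (vertical axis) for each of the 71 members (horizontal axis), grouped by role. Points are limma estimates and bars their 95% intervals for 3 libraries a group, red for called higher, blue for called lower and grey for not called, and the dashed line is the median of all genes tested, -0.28. The 4 dynamics genes and MRPL19 are the 5 called lower, and CHCHD10 is highest at 0.88.

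How many members rose depended on how the libraries were scaled. Both rescalings used only listed genes, all of which had passed the study's thresholds for change. Median-of-ratios scaling takes most genes as unchanged, and quantile normalization takes the libraries to share a distribution. A list of changed genes need not meet either premise, so a call shared by the scalings is no independent support. After quantile normalization, 38 were again called higher and 5 lower, but only 32 of the higher and 4 of the lower ones were the same genes. After median-of-ratios scaling over the listed genes, 64 were called higher and 5 lower, with 45 of the 48 ribosomal and all 8 import genes among the higher ones. Over all genes tested, 37.8% were called higher and 30.4% lower after quantile normalization, and 44.5% and 40.3% after median-of-ratios scaling. The median of all genes tested was -0.01 and -0.08 under these scalings, and the members' median of 0.25 and 0.42 lay 0.26 and 0.50 above it. Of the calls over all genes, 36.6% were higher in the deposited scale, 55.5% with quantile-normalized and 52.5% with median-of-ratios scaled values. MFN1, OPA1, MTFR2 and MRPL19 were called lower under all 3. CHCHD2 turned from called higher on the TPM scale to called lower under quantile normalization.

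**Figure D2:**
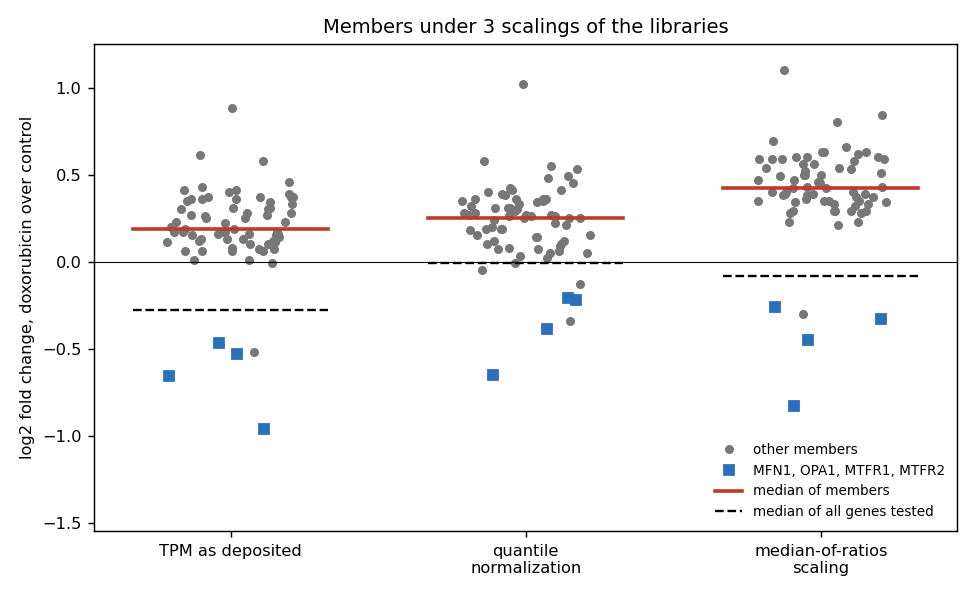
Log2 fold change of each member (vertical axis) with the TPM values as deposited, after quantile normalization and after median-of-ratios scaling (horizontal axis). Squares are the 4 dynamics genes, circles the other members, red bars the members' median (0.19, 0.25 and 0.42) and dashed bars the median of all genes tested (-0.28, -0.01 and -0.08). The squares lie below 0 under each scaling.

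Genes of the large ribosomal subunit were mostly called higher. Of 32, 19 were called higher, 1 lower and 12 were not called, with a median log2 fold change of 0.24. Their summed level was 2795, 2756 and 2771 TPM in the control and 3359, 3537 and 3247 TPM in the doxorubicin libraries, 21.9% higher by the means. Of the 16 small subunit genes, 6 were called higher and none lower in limma, with a median of 0.13, and their sum went from 1195, 1196 and 1227 TPM to 1362, 1409 and 1287 TPM, 12.2% higher. The libraries of the 2 groups did not overlap in either sum. Nor did they in the sum of all listed genes, which was 8.64% higher by the means. Whether the subunits differ from each other was not tested. No small subunit gene could be called lower at any threshold, since all 16 had a log2 fold change of 0.01 or more. None was called lower after quantile normalization or median-of-ratios scaling either, where 5 and 15 of them were called higher. Over all genes tested 37.8% and 44.5% were called higher under these scalings. On the TPM values the share was 28.2%, and 32.0% among genes of at least 5 TPM. The 37.5% of small subunit genes called higher on the TPM values lies near the latter.

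MRPL41 (ENSG00000182154, chromosome 9, 137551199 to 137552555 on GRCh38, here and below from GENCODE release 29) showed the largest rise among the ribosomal genes. Its level was 180.74, 190.69 and 169.86 TPM in the control and 271.73, 286.73 and 270.04 TPM in the doxorubicin libraries. Every doxorubicin library was higher by a wide margin, and the log2 fold change was 0.61 (SE 0.06, adjusted p = 1.92e-05 from limma).
MRPL17 (chromosome 11, 6680782 to 6683401) had 59.80, 55.12 and 52.50 TPM in control and 79.81, 93.97 and 78.05 TPM in doxorubicin libraries. Doxorubicin replicate 2 was the highest, and the other two still lay well above all controls. Its log2 fold change was 0.58 (SE 0.09, adjusted p = 0.000277 from limma). MRPL40, MRPL24 and MRPL51, the next in order, had 0.43, 0.40 and 0.37. These are all proteins of the large subunit, and under quantile normalization their log2 fold changes were 0.41, 0.35 and 0.31, with each still called.
MRPL24 (chromosome 1, 156737303 to 156741590) was the most even of them, with 123 ± 1.93 TPM in control and 162 ± 5.33 TPM in doxorubicin cells (mean ± SD of n = 3). The most abundant of the large subunit was MRPL33, with 241 ± 16.9 and 308 ± 22.7 TPM (mean ± SD of n = 3) and a log2 fold change of 0.35 (SE 0.07).

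The most abundant small subunit gene, MRPS24 (chromosome 7, 43866558 to 43869893), had 290.02, 302.78 and 317.33 TPM in control and 339.70, 355.52 and 322.78 TPM in doxorubicin libraries. The groups did not overlap, though the lowest doxorubicin library lay close to the highest control. With a log2 fold change of 0.16 (SE 0.06, adjusted p = 0.028 from limma) it was called, and after quantile normalization it was not (0.07, adjusted p = 0.209 from limma). MRPS34 had 0.17 on the TPM values and 0.10 after quantile normalization, where it was not called. Both calls also rest on single libraries. MRPS24 was lost without control replicate 1 or 2 or doxorubicin replicate 1 or 2, and MRPS34 without control replicate 2 or 3 or doxorubicin replicate 1 or 2 (adjusted p from 0.0564 to 0.118 from limma). MRPS15, the next in level, had 100 ± 1.99 and 108 ± 5.85 TPM (mean ± SD of n = 3) and was not called (adjusted p = 0.143 from limma). Among the smallest differences of genes whose groups did not overlap were MRPL43, MRPS15, MRPL16 and MRPS11, with log2 fold changes of 0.06, 0.11, 0.11 and 0.13 and none called on the TPM values. After median-of-ratios scaling all 4 were called higher.

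MRPL19 (chromosome 2, 75646783 to 75690851), another large subunit protein, was the exception among the 48 ribosomal genes. Its level was 21.65, 27.01 and 23.10 TPM in control and 17.23, 15.30 and 16.39 TPM in doxorubicin libraries. All doxorubicin libraries were lower, and the log2 fold change was -0.52 (SE 0.11, adjusted p = 0.00153 from limma), a difference of -0.24 from the median of the tested genes, or -0.57 where only genes of at least 5 TPM are taken. It was also called lower after quantile normalization (-0.34) and median-of-ratios scaling (-0.30), and with each library left out in turn.

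**Figure D3:**
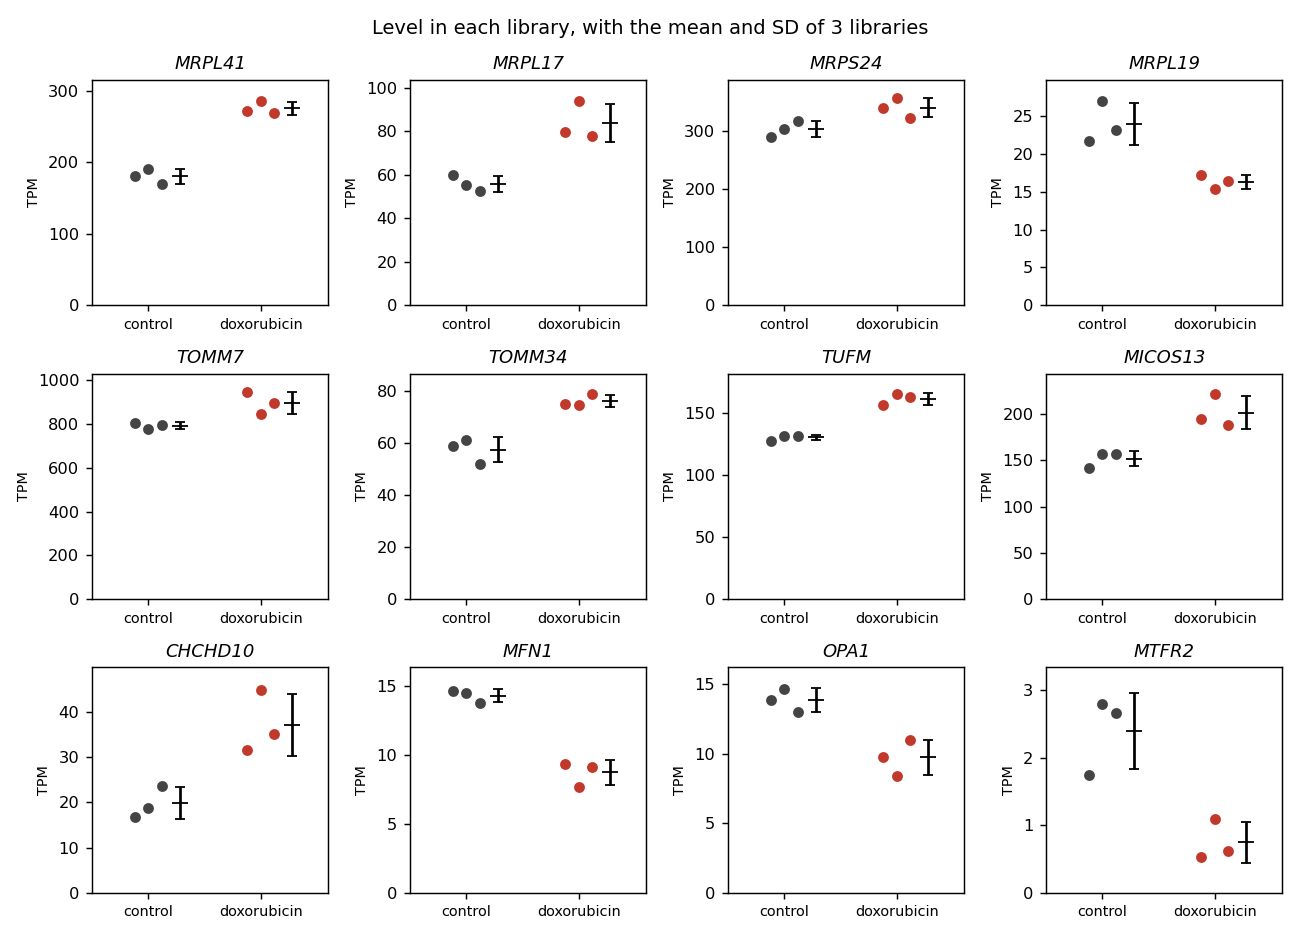
TPM in each library (vertical axis, from 0) for 12 members, with 3 control libraries in dark grey and 3 doxorubicin libraries in red (horizontal axis), and the mean and SD of each group beside the points. The groups do not overlap in any of the 12, and MRPL19, MFN1, OPA1 and MTFR2 are the ones with lower doxorubicin levels.

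All 8 import genes had a positive log2 fold change, from 0.15 to 0.41. Of them 5 were called higher (TOMM34, TIMM17B, TIMM8B, PAM16 and TOMM7), against 28.2% of all genes tested. The import genes' summed level was 1366, 1363 and 1373 TPM in control and 1629, 1560 and 1534 TPM in doxorubicin libraries. It was 15.1% higher by the means and without overlap, while the sum of all listed genes was 8.64% higher, also without overlap. Without doxorubicin replicate 1, only 3 of the 8 were called. TOMM7 made up more of the import genes' sum than any other of them.
TOMM34 (chromosome 20, 44942130 to 44960486), a cytosolic cochaperone of preproteins, had 58.78, 61.18 and 51.93 TPM in control and 75.03, 74.55 and 78.81 TPM in doxorubicin libraries. The groups were far apart, with a log2 fold change of 0.41 (SE 0.08, adjusted p = 0.00104 from limma). TIMM17B, a subunit of the TIM23 channel, followed with 46.8 ± 2.58 and 60.6 ± 2.75 TPM (mean ± SD of n = 3) and 0.37 (SE 0.07).
TIMM8B, a small TIM chaperone of the intermembrane space, had 91.11, 92.96 and 91.89 TPM in control and 115.71, 120.40 and 105.70 TPM in doxorubicin libraries. Its controls were almost equal and all below the doxorubicin libraries, with a log2 fold change of 0.30 (SE 0.07, adjusted p = 0.00226 from limma). The related chaperone TIMM10 overlapped between the groups, with 53.1 ± 5.3 and 59.1 ± 3.62 TPM (mean ± SD of n = 3) and an adjusted p of 0.123 in limma.
TOMM7, a small subunit of the TOM complex that also takes part in holding PINK1 there, was the most abundant of all members. Its level was 805.68, 775.18 and 794.55 TPM in control and 945.81, 844.14 and 893.82 TPM in doxorubicin libraries. The groups did not overlap, and the log2 fold change of 0.17 (SE 0.05, adjusted p = 0.014 from limma) turned to -0.05 after quantile normalization (adjusted p = 0.469 from limma). It was not called without doxorubicin replicate 1 (adjusted p = 0.0771 from limma). TOMM6, its small neighbour in the complex, had 0.16 and was just not called (adjusted p = 0.0542 from limma). PAM16, part of the motor that pulls proteins into the matrix, was called at 0.26 although its groups overlapped, and was not called without control replicate 1 or 2 or doxorubicin replicate 1 or 2 (adjusted p from 0.0677 to 0.0915 from limma). TIMM29, of the TIM22 complex, had 0.22 with overlap and was not called on the TPM values, but was after quantile normalization (0.49, adjusted p = 0.0204 from limma).

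The translation factors also tended upward. TUFM (chromosome 16, 28842411 to 28846408), the elongation factor that brings aminoacyl-tRNA to the mitochondrial ribosome, had 127.72, 131.45 and 131.82 TPM in control and 156.18, 165.46 and 163.30 TPM in doxorubicin libraries. The spread within each group was small against the gap between them, and the log2 fold change was 0.31 (SE 0.06, adjusted p = 0.000844 from limma). The initiation factor gene MTIF3 rose from 46.2 ± 2.42 to 56.5 ± 5.25 TPM (mean ± SD of n = 3), a log2 fold change of 0.28. TSFM, the exchange factor that recharges TUFM, overlapped between the groups at 33.9 ± 4.28 and 38.7 ± 2.3 TPM (mean ± SD of n = 3; adjusted p = 0.0949 from limma). POLRMT, the RNA polymerase that transcribes mitochondrial DNA, was not called either, with 24.46, 26.31 and 25.67 TPM in control and 28.65, 28.91 and 24.77 TPM in doxorubicin libraries.

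CHCHD proteins carry a coiled-coil-helix-coiled-coil-helix fold and mostly sit between the mitochondrial membranes, and MICOS proteins hold the cristae junctions together. Of these 7 genes, 6 were called higher, against 28.2% of all genes tested, and CHCHD4 was not called. CHCHD10 (chromosome 22, 23765834 to 23768443), mutated in some motor neuron and muscle diseases, had the largest rise of all members. It went from 16.82, 18.80 and 23.67 TPM in control to 31.62, 44.73 and 35.02 TPM in doxorubicin libraries. The libraries of each group differed more than for most members, yet did not overlap, and the log2 fold change was 0.88 (SE 0.15, adjusted p = 0.000607 from limma).
Its close paralogue CHCHD2 stood at a far higher level and changed by less. It had 576.10, 583.92 and 556.76 TPM in control and 628.48, 632.66 and 602.10 TPM in doxorubicin libraries, a log2 fold change of 0.12 (SE 0.05, adjusted p = 0.0486 from limma). This call was lost when any library other than doxorubicin replicate 3 was left out, and the value was -0.13 after quantile normalization (adjusted p = 0.0174 from limma). The difference in response between the 2 paralogues was not tested.
MICOS13 (chromosome 19, 5678421 to 5680896) had 142.18, 156.36 and 156.70 TPM in control and 194.42, 221.82 and 188.49 TPM in doxorubicin libraries, a log2 fold change of 0.41 (SE 0.07, adjusted p = 0.000857 from limma). MICOS10 rose alongside by 0.39 (SE 0.09), though it overlaps the readthrough gene MICOS10-NBL1, so how reads were shared between them is uncertain. CHCHD5 and CHCHD1, the latter a component of the small ribosomal subunit despite its name, rose by 0.46 and 0.25. CHCHD1 was no longer called without control replicate 2 or without doxorubicin replicate 1 (adjusted p = 0.0545 and 0.0804 from limma). CHCHD4, the receptor of the oxidative import route for such proteins, had 7.86 ± 0.754 and 8.93 ± 0.631 TPM (mean ± SD of n = 3; adjusted p = 0.206 from limma), and after quantile normalization it was called higher (0.48).

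The 4 dynamics genes all fell, and in each the groups did not overlap. Their log2 fold changes had a median of -0.59. Of all genes tested 48.7% were called lower. MFN1 (chromosome 3, 179347692 to 179394931), a mitofusin of the outer membrane, had 14.66, 14.49 and 13.74 TPM in control and 9.33, 7.69 and 9.16 TPM in doxorubicin libraries. Its mean fell by 39.0%, with a log2 fold change of -0.66 (SE 0.11, adjusted p = 0.000546 from limma).
OPA1 (chromosome 3, 193593144 to 193697823), the dynamin-related GTPase that fuses the inner membrane, had 13.89, 14.68 and 13.01 TPM in control and 9.78, 8.43 and 10.99 TPM in doxorubicin libraries. All doxorubicin values were lower, by a log2 fold change of -0.47 (SE 0.12, adjusted p = 0.00483 from limma). The value was -0.21 after quantile normalization and -0.26 after median-of-ratios scaling, called under both.
MTFR1, a mitochondrial fission regulator, had 10.38, 10.16 and 10.07 TPM in control and 7.72, 5.67 and 7.04 TPM in doxorubicin libraries. The controls were nearly equal and the log2 fold change was -0.53 (SE 0.13, adjusted p = 0.00362 from limma), and after quantile normalization it was no longer called (-0.22, adjusted p = 0.0758 from limma). Its paralogue MTFR2 (chromosome 6, 136231024 to 136250335) had only 1.75, 2.79 and 2.66 TPM in control and 0.53, 1.09 and 0.62 TPM in doxorubicin libraries. The mean fell by 68.9%, and the log2 fold change was -0.96 (SE 0.17, adjusted p = 0.000787 from limma). This was the largest fall among the members, at the lowest level of any of them. Genes of fusion (MFN1, OPA1) and of fission (MTFR1, MTFR2) thus fell together.

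Other fission, fusion and transport factors were called in both directions. Of 19 genes on that list, 7 were listed by the study and tested, of which FIS1 was called higher and TRAK2 and SPIRE1 lower (FIS1 and SPIRE1 were named after their values were seen). TRAK2, an adaptor that links mitochondria to motor proteins, fell from 13.3 ± 0.819 to 7.16 ± 1.04 TPM (mean ± SD of n = 3), a log2 fold change of -0.81. FIS1, an outer membrane receptor of fission, went from 204 ± 5.41 to 242 ± 12.2 TPM (mean ± SD of n = 3), a log2 fold change of 0.24. MIEF2 had the largest value of the list, 0.34, and was not called (adjusted p = 0.107 from limma), though it was after quantile normalization (0.60). On this list 5 genes were called higher and 2 lower after quantile normalization, and 4 and 2 after median-of-ratios scaling. Over all genes tested on the TPM values, 28.2% were called higher and 48.7% lower. The corresponding shares were 37.8% and 30.4% after quantile normalization, and 44.5% and 40.3% after median-of-ratios scaling.

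On the TPM values the regulators of mitochondrial biogenesis were lower or not called. Of 13 on the list, 7 were tested, none was called higher and 4 were called lower, with a median log2 fold change of -0.52. The share called lower is near the 48.7% of all genes tested. NRF1 had 7.82, 5.34 and 4.39 TPM in control and 3.10, 3.02 and 3.53 TPM in doxorubicin libraries. Control replicate 1 stood above the other two, and the log2 fold change was -0.67 (SE 0.17, adjusted p = 0.00569 from limma). GABPA and GABPB1, named after their values were seen as is NFE2L2, had -0.52 and -0.58, with 5.68 ± 0.315 and 3.67 ± 0.524 TPM for GABPA (mean ± SD of n = 3). After quantile normalization NRF1 and GABPA were no longer called (-0.29 and -0.13, adjusted p = 0.137 and 0.218 from limma), while GABPB1 and NFE2L2 were. ESRRA, a nuclear receptor, was the only tested gene of the list with a positive value, 0.14 (adjusted p = 0.295 from limma), and after quantile normalization it was called higher (0.30, adjusted p = 0.0315 from limma).

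Chaperones and proteases of the matrix gave mixed calls. HSPD1, the matrix chaperonin that folds imported proteins, had 171, 172 and 164 TPM in control and 107, 91.3 and 110 TPM in doxorubicin libraries. This fall of -0.71 (SE 0.08, adjusted p = 3.2e-05 from limma) remained at -0.75 after quantile normalization. Of the 4 tested genes of that list, 2 were higher and 2 lower, against 28.2% and 48.7% of all genes tested. ROMO1, a small inner membrane protein, showed the largest rise of the list at 0.47. CLPX, the ATPase partner of the protease CLPP, fell by 0.71 on the log2 scale, and HTRA2, a protease of the intermembrane space, rose by 0.31.
Of 11 tested genes of the mitochondrial stress response 8 were called lower and 2 higher, with a median of -1.03, against 48.7% lower and 28.2% higher over all genes. After quantile normalization the counts were also 8 and 2, against 30.4% lower and 37.8% higher over all genes tested. The members that fell include enzymes of serine and one-carbon metabolism. PSAT1, which acts in serine synthesis, had the largest fall, from 63.5 ± 4.43 to 13.8 ± 1.99 TPM (mean ± SD of n = 3), a log2 fold change of -2.13 (SE 0.11, adjusted p = 1.53e-07 from limma). GDF15, a secreted cytokine that is also a p53 target, rose from 44.6 ± 2.28 to 128 ± 10.7 TPM (mean ± SD of n = 3), the largest rise of that list (adjusted p = 1.65e-07 from limma).
All 4 tested mitophagy genes were called higher, at log2 fold changes from 0.16 for FKBP8 to 0.52 for PINK1, but after quantile normalization PINK1 alone was. FKBP8 then had 0.07 and SQSTM1 0.05 (adjusted p = 0.252 and 0.267 from limma), and FUNDC2 had 0.21 (adjusted p = 0.0515 from limma). SQSTM1 and FUNDC2 are named after their values were seen, and all 4 were called after median-of-ratios scaling. PINK1, the kinase that marks damaged mitochondria, had 55.6, 59.2 and 55.4 TPM in control and 84.7, 81.1 and 79.0 TPM in doxorubicin libraries, and a log2 fold change of 0.51 after quantile normalization.

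On the TPM values genes around the mitochondrial ribosome showed calls both ways. Of 8 tested assembly and recycling genes 4 were higher and 1 lower, with DDX28 at 0.31 and METTL15 at -0.37 as the extremes. Of 8 tested tRNA synthetase and related genes 2 were higher and 2 lower, with the largest rise in PTRH2, a peptidyl-tRNA hydrolase, at 0.26. Of 7 genes for mitochondrial DNA maintenance and transcripts 5 were higher and 2 lower, from the RNA helicase SUPV3L1 at 0.50 to the primase PRIMPOL at -0.64. Outer membrane assembly and oxidative import genes had 3 higher and 1 lower of 7, from CMC1 at 0.44 to MTX3 at -0.35. Of 2 cristae genes outside the members, ATP5ME, also an ATP synthase subunit, was higher at 0.51 and APOOL was not called. After quantile normalization none of the 8 tRNA synthetase, 8 assembly, 7 DNA maintenance and 7 outer membrane genes was called lower, and 6, 5, 4 and 5 of them were called higher. METTL15 then had 0.01 and PRIMPOL -0.27 (adjusted p = 0.958 and 0.116 from limma). After median-of-ratios scaling only 2 genes of these 4 lists were called lower, both of DNA maintenance, and 6, 6, 5 and 6 were higher. Over all genes tested, 28.2% were called higher and 48.7% lower on the TPM values. These shares were 37.8% and 30.4% after quantile normalization, and 44.5% and 40.3% after median-of-ratios scaling.

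Beside the members stood 3 related classes, given by counts and medians with no test between them. Of 65 tested nuclear subunits of oxidative phosphorylation, 57 were called higher and none lower in limma (1 had a negative log2 fold change, at -0.01), with a median of 0.30. Of 26 cytosolic ribosomal protein genes, 16 were higher and 3 lower, with a median of 0.16. Of 13 genes encoded by mitochondrial DNA, 10 were higher and 1 lower, with a median of 0.18. After quantile normalization the medians were 0.21, 0.03 and 0.00 for these classes and 0.25 for the members. The calls were then 42 higher and 0 lower, 5 and 3, and 4 and 4. Over all genes tested 28.2% were called higher and 48.7% lower on the TPM values, and 37.8% and 30.4% after quantile normalization.

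Some members start next to another coding gene on the opposite strand. A coding gene starting within 1000 bp in the other direction was annotated for 19 of 71 members (26.8%), against 7.38% of 19951 coding genes. In MRPL46 and MRPS11 both genes of the pair are members, with starts 34 bp apart. Partners of 8 members were listed and tested, and this counts the pair of MRPL46 and MRPS11 once from each side. Of these 8 partners 4 were called higher and 2 lower, against 28.2% and 48.7% of all genes tested. In 6 the log2 fold change had the sign of the member's. All 8 members had a positive value, so these 6 are simply the partners with a positive value. Over all genes tested 2654 of 5721 had one. The pair of MRPL46 and MRPS11 enters the 6 from each side. The sequences between starts are shown for 4 pairs, on the strand of the member, with an ETS word in capitals where present.
MRPL46 with MRPS11, chr15:88467420-88467452, minus strand: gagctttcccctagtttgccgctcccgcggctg
MRPL47 with NDUFB5, chr3:179604655-179604689, minus strand: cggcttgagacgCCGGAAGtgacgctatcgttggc
MRPL57 with SKA3, chr13:21176603-21176644, plus strand: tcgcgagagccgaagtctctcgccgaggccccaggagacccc
CHCHD4 with TMEM43, chr3:14124871-14124939, minus strand: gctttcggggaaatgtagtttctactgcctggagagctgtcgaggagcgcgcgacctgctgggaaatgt
MRPL47 and NDUFB5, a subunit of complex I, were both called higher, with log2 fold changes of 0.23 and 0.20. So were MRPL36 and NDUFS6, another complex I subunit, with 0.19 and 0.60. MRPL46 was called higher at 0.28 and MRPS11 was not called at 0.13. TIMM29 had 0.22 (not called) beside YIPF2 at 0.31 (called higher), and MRPL54 had 0.31 (called higher) beside APBA3 at 0.14 (not called).
MRPL57 and SKA3, which start 43 bp apart, were called in opposite directions. MRPL57 had 20.59, 17.94 and 19.64 TPM in control and 23.62, 24.71 and 23.75 TPM in doxorubicin libraries, a log2 fold change of 0.30 (SE 0.09, adjusted p = 0.012 from limma). SKA3, which encodes a protein that ties kinetochores to spindle microtubules in mitosis, had 5.29, 6.84 and 6.16 TPM in control and 0.06, 0.16 and 0.16 TPM in doxorubicin libraries. Its log2 fold change was -2.65 (SE 0.13, adjusted p = 1.28e-07 from limma). TMEM43, opposite CHCHD4, fell from 56.0 ± 3.11 to 38.8 ± 4.26 TPM (mean ± SD of n = 3), while CHCHD4 was not called. These pairs were singled out after their values were seen.

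**Figure D4:**
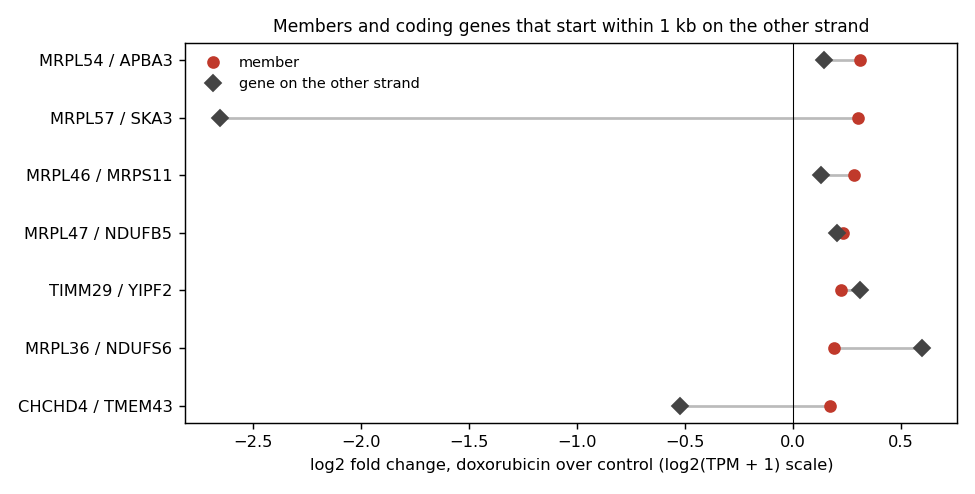
Log2 fold change on the log2(TPM + 1) scale (horizontal axis) of members (red circles) and of the tested coding genes that start within 1000 bp on the other strand (dark diamonds), with 1 pair a row (vertical axis). MRPL57 at 0.30 and SKA3 at -2.65 are the pair farthest apart, and CHCHD4 and TMEM43 also lie on opposite sides of 0.

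The calls were also set against genomic span, as a description with no test. Of 26 members spanning under 5000 bp, 19 were called higher and none lower, and the 0 holds at any threshold since none of them had a negative log2 fold change. Of 32 spanning 5000 to 20000 bp 13 were higher and 1 lower, and of 13 spanning 20000 bp or more 6 were higher and 4 lower. Spearman's rho of span and log2 fold change was -0.38 over the 71 members and -0.30 over the 67 without the dynamics genes, as a description across genes that share the same libraries. The log2 fold change was also related to the control level (rho 0.30) and less to transcript length (-0.10). The medians of the log2 fold change were 0.30, 0.15 and 0.19 from the short to the long class, so they did not fall steadily. MRPL33 and MICOS10, the longest by GENCODE, span 216371 and 145419 bp with log2 fold changes of 0.35 and 0.39. For MICOS10 this rests on an outlying start. Its only RefSeq promoter window, 19596729 to 19597028 on chromosome 1, lies well inside the GENCODE span of 19484403 to 19629821. From the RefSeq start its span would be much shorter. The counts by span are of members only, so they do not show whether short genes of the whole list behave alike. The median span was 8625 bp for the members and 32673 bp for all listed genes. Over all genes tested, of any span, 28.2% were called higher and 48.7% lower. The part of span in the members' changes was not tested.

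**Figure D5:**
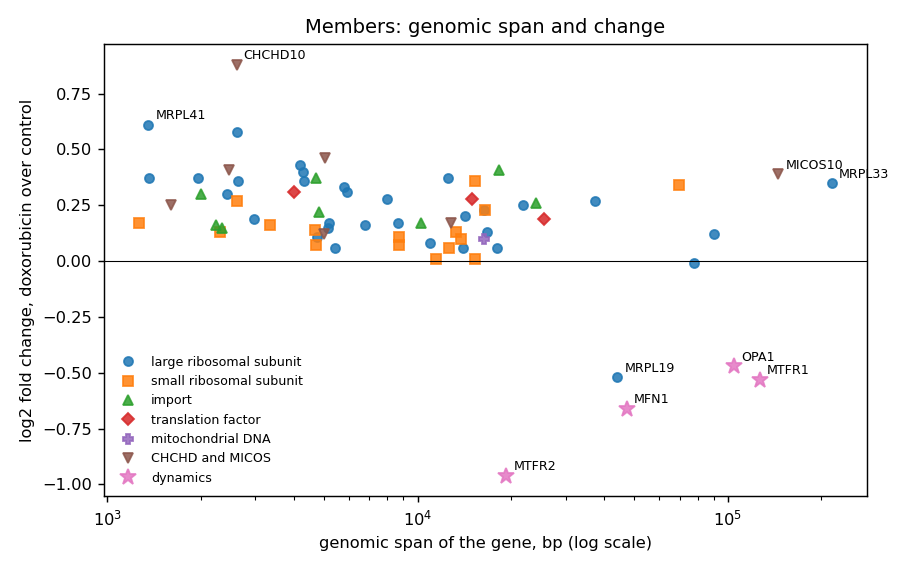
Genomic span in bp (horizontal axis, log scale) against log2 fold change of doxorubicin over control (vertical axis) for the 71 members, with a symbol for each role. The 4 dynamics genes and MRPL19 lie at spans of 19312 bp or more and below -0.4, while MRPL33 and MICOS10 lie at the long end with positive values. Spans are those of GENCODE, and the RefSeq start of MICOS10 lies well inside its span.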

How the data were processed

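RNA from WI-38 cells was sequenced as paired reads of 150 bp. The deposited table gives a value per gene and library, taken as TPM as made by the authors, together with the authors' own group means, fold change, log2 fold change and p-value columns, which were not used here. The unit is not named in the table. A per-library constant between TPM and FPKM would be covered by the rescaling alternatives. The submitters' processing notes name CASAVA, HISAT2, StringTie, RSEM, DESeq2, edgeR and the build GRCm38, a mouse build, while the gene identifiers are human. Roles, versions and strandedness are not given in the sources used here. The depth is unknown, so no counting interval was computed.

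Genes that averaged 1 TPM or more across 6 libraries (5721 of 6499) were fitted with limma 3.58.1 in R 4.3.3 (eBayes with trend and robust) on log2(TPM + 1), with Benjamini-Hochberg adjustment over all of them. The authors drew the list from their own fit. On the log2(TPM + 1) scale, 39 of the 71 members had a fold change under 1.2. All 71 had passed the authors' threshold of 1.2, so the authors' fold changes came from values on another scale, which is not stated. Means, SDs, overlaps and medians were computed with NumPy 2.4.6, SciPy 1.17.1 and pandas 2.3.3 under Python 3.11.15. Coordinates, spans and neighbouring starts came from GENCODE release 29 and promoter windows from RefSeq. The NRF1 word was shortened to its inner letters after a longer form had been searched, which fewer members and fewer coding genes held. In data simulated for this comparison over 5721 genes, limma recovered 57 of 100 genes changed 1.5-fold and 89 of 100 changed 2-fold, and called 7 unchanged ones. Only 200 genes were changed there, whereas 76.9% of the genes tested were called in the data. The adjusted threshold therefore differs, and these figures do not give the recovery or error in the data.

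Alternatives were a pseudocount of 0.1, no filter, a mean of at least 5 TPM, quantile normalization, median-of-ratios scaling, the replicate number as a block, eBayes without trend and robust, 2 call rules with a fold change over 1.2, and leaving out each library. The members and all gene lists were chosen with earlier results of these data known. Named were, of the ribosomal genes, the 5 largest and 5 smallest log2 fold changes without overlap and the 3 highest levels of each subunit, all members of the other roles, and the largest rise and fall of each of 11 lists of neighbouring functions, of which one is not reported here. Genes outside this rule are given in the text as chosen after their values were seen, or as partners of a member's start. Groups came from the sample labels. Libraries given oridonin were not analysed here.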

Additional observations from a re-analysis of the deposited data

How the results depend on the processing

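The members called lower numbered 4 or 5 under every alternative that refitted the data, and those called higher 30 to 38, except for 64 after median-of-ratios scaling and 42 without doxorubicin replicate 3. With a fold change over 1.2 required as well, 27 were higher and 5 lower, against 22.7% and 48.5% of all genes tested. Median-of-ratios scaling also gave 45 ribosomal and 8 import genes called higher and a members' median of 0.42, and quantile normalization a median of 0.25. Import genes called higher numbered 3 with eBayes without trend and robust, and 3 with a fold change over 1.2 and either an unadjusted or an adjusted p under 0.05. Under quantile normalization CHCHD2 turned to -0.13 and TOMM7 to -0.05. Leaving out 1 library at a time gave 30 to 42 members higher and 5 lower, 19 to 28 ribosomal genes higher and 1 lower, 3 to 6 import genes higher and 0 lower, a members' median of 0.18 to 0.21, and 3874 to 4389 genes called in all, against 4399. With the replicate number as a block 32 members were higher and 5 lower. Same-numbered libraries did not deviate together (correlations of -0.063, -0.193 and -0.23), so the numbers were not taken to pair them. Of 36 named genes, 2 changed sign after quantile normalization, CHCHD2, then called lower, and TOMM7, then not called. A further 3 lost and 2 gained a call, and 10 gained one after median-of-ratios scaling. The cause of these changes was not tested. TPM keeps no read depth, so how far counting error limits the low genes, MTFR2 above all, is unknown.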
